A study of Homo sapiens with 10 samples.

Results

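Collagen hydroxylases were examined as a set of 10 genes, taken by symbol out of the 60168 genes in the deposited data: the prolyl 3-hydroxylase family P3H1, P3H2, P3H3 and P3H4, the prolyl 4-hydroxylase alpha subunits P4HA1, P4HA2 and P4HA3, and the lysyl hydroxylases PLOD1, PLOD2 and PLOD3. Their mRNA was measured in MCF10A, a non-tumorigenic human mammary epithelial cell line, carrying an empty vector (control), a vector for TRAM2 (MCF10A-TRAM2) or a vector for activated YAP (MCF10A-YAP5SA). TRAM2 is a protein of the endoplasmic reticulum translocon, and YAP5SA is a form of the transcriptional co-activator YAP whose inhibitory phosphorylation sites are replaced. All cells were transduced, selected with antibiotic and grown in the same medium to near confluence. The methods place YAP5SA in a lentiviral backbone with blasticidin resistance and TRAM2 in one with a CMV promoter and puromycin resistance, and the empty vector's backbone was not stated in the sources read. The labels hold 4 control, 4 MCF10A-TRAM2 and 2 MCF10A-YAP5SA libraries, where the submitters' design text gives 3 biological replicates per condition.

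These enzymes act on collagen chains inside the endoplasmic reticulum, before the chains fold into a triple helix, and need iron, 2-oxoglutarate, oxygen and ascorbate. Prolyl 4-hydroxylase is a tetramer of an alpha subunit and P4HB, and its product keeps the helix stable at body temperature. Prolyl 3-hydroxylases modify a few prolines, P3H1 in a complex with CRTAP and the cyclophilin PPIB. Lysyl hydroxylases make the hydroxylysines that carry sugars and that lysyl oxidases later use for cross-links, and PLOD2 is known for those of the telopeptides, the short non-helical ends of the chains. Basement membrane collagens, which epithelial cells make, are rich in 3-hydroxyproline and glycosylated hydroxylysine.

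Estimated counts per library ran from 8489854 to 16314438. Control library C matched A, and D matched B, to within sampling noise over 2592 genes, with chi-square per degree of freedom of 0.994 and 1.031 (p = 0.5815 and 0.1303), whereas the other control pairs differed by more, and each matched pair was counted as 1 sample. These genes had a mean count of 50 or more and every value within 0.001 of a whole number. The groups thus held 2 (control 1 and control 2), 4 and 2 samples. Over the 3704 genes with whole counts in these 2 libraries alone, the chi-square test found a difference between D and B, at 1.048 per degree of freedom and p = 0.02083. Over all genes with a mean count of 50 or more, whole or not, both matched pairs differed. There the chi-square test gave 1.229 per degree of freedom for A with C and 1.223 for B with D (p = 3.9e-56 and 6.0e-52). The other control pairs gave 1.421 to 1.492. Among the MCF10A-TRAM2 libraries chi-square per degree of freedom, over genes with whole counts in all 4, ran from 1.9 to 6.37, highest for pairs with library B. A run number in the names of the data splits each group by run, the first holding A and B and the second C and D, and all MCF10A-YAP5SA libraries were in the first. Whether samples came from separate cultures is not given by the labels, so p-values measure the spread between these samples, which may be technical. TRAM2 was at 28.4 and 28.9 CPM (the count relative to library size, after TMM scaling) in control, 390, 611, 250 and 460 CPM in MCF10A-TRAM2 libraries A to D, and 242 and 247 CPM in MCF10A-YAP5SA. YAP1 was at 187 CPM in both control samples, 181 to 196 CPM in MCF10A-TRAM2, and 337 and 342 CPM in MCF10A-YAP5SA. Both vector genes were thus highest in the cells labelled with them. Of 10 mammary and basal epithelial markers, all had a mean above 1 CPM in control and MCF10A-TRAM2 and 9 in MCF10A-YAP5SA, where TP63 was at 0.1195 CPM, and their summed level was 4000 to 4030, 3700 to 4330 and 2950 to 3030 CPM. With YAP5SA 2 of them were called higher (KRT17 and KRT18) and 5 lower (KRT5, TP63, EPCAM, CDH1 and CDH3). KRT14, ITGB4 and LAMB3 were not called. Among all genes tested, 15.3% were called higher and 14.1% lower. Of 8 fibroblast markers, 2, 2 and 1 had a mean above 1 CPM, with summed levels of 72.4 to 76.7, 80.1 to 95.9 and 93.2 to 97.9 CPM. FAP made up most of that sum (70.78, 82.74 and 93.93 CPM on average), THY1 was at 0 counts in every sample and LUM and PDGFRA at 0 in control. Endothelial markers summed to 9.7 to 10.6, 12 to 17.5 and 2.94 CPM and leukocyte markers to 38.3 to 38.4, 33.8 to 46.1 and 49.3 to 55.2 CPM, the latter nearly all CD68, with CD3E at 0. The part of these shifts in the results was not tested.

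With activated YAP the set moved unevenly: P3H1, P3H3, P3H4 and PLOD2 rose, P3H2 fell, and P4HA1, P4HA2, PLOD1 and PLOD3 shifted by less than the size threshold. Calls required an adjusted p under 0.05 (edgeR quasi-likelihood test, Benjamini-Hochberg over all genes) together with a log2 fold change beyond 0.5 in either direction. For MCF10A-YAP5SA against control, 4 of the 9 members tested were called higher and 1 lower, beside 15.3% of all 15768 genes called higher, 14.1% called lower and 29.4% in either direction. All 9 had an adjusted p under 0.05, as did 48.7% of all genes, and in all 9 the samples of the groups did not overlap, as in 76.7% of all genes. The median log2 fold change of the members was 0.36, against -0.0093 for all genes. The tenth member, P4HA3, was too low to be tested. For MCF10A-TRAM2 against control, edgeR called none of the 9 members, and neither did DESeq2, beside 0.0571% of all genes called (0.0317% higher and 0.0254% lower), and 2 members, P3H2 and PLOD3, had an unadjusted p under 0.05, as did 12.6% of all genes, and groups that did not overlap, as did 22.7% of all genes. TRAM2 itself, 14.9-fold higher in these cells (log2 fold change 3.90, SE 0.4499), was not called in that comparison either (edgeR adjusted p = 0.072). These are bulk measurements, in which fewer cells that express a gene and less of its RNA per cell cannot be told apart. Both comparisons share the control samples.

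**Figure D1:**
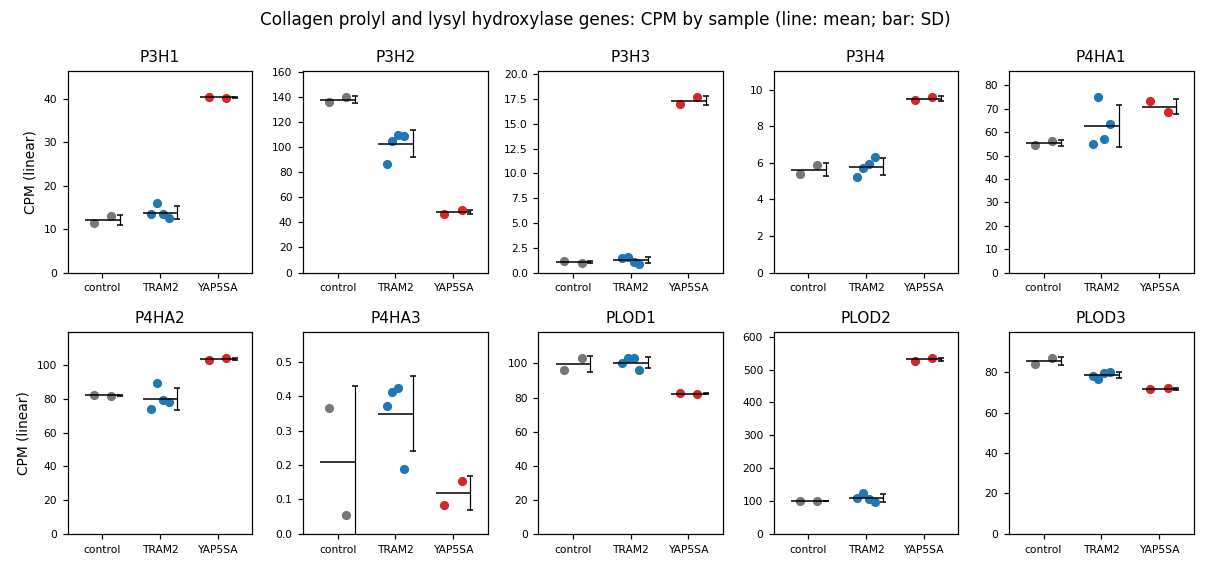
Level of each member in CPM (linear axis from 0) in the 2 control, 4 TRAM2 and 2 YAP5SA samples; points are samples, lines group means and bars SD (that of P4HA3 in control reaches below 0 and is cut at the axis). YAP5SA samples stand above the others for P3H1, P3H3, P3H4 and PLOD2, and below them for P3H2.

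**Figure D2:**
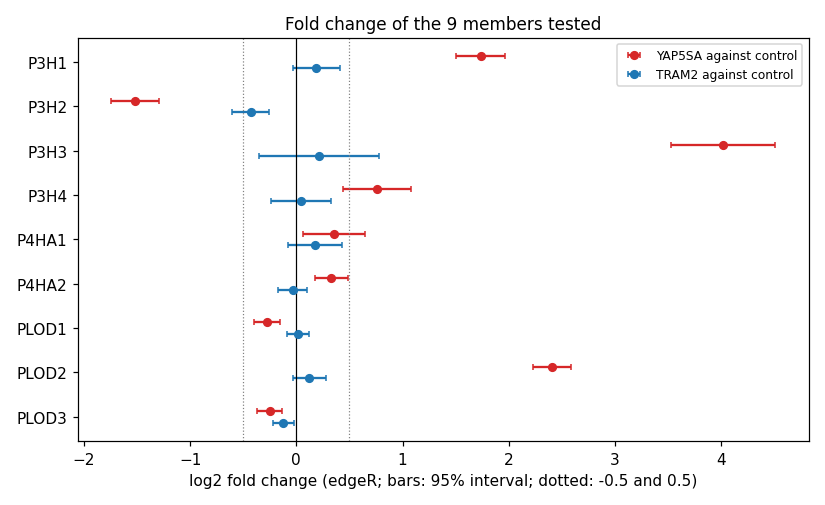
Log2 fold change (x axis) with its 95% interval for the 9 members tested (rows), YAP5SA against control in red and TRAM2 against control in blue; dotted lines mark the size threshold of 0.5. P3H3 and PLOD2 lie farthest to the right for YAP5SA, at 4.02 and 2.41, and P3H2 lies farthest to the left, at -1.52.

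P3H1 is the prolyl 3-hydroxylase of fibrillar collagen whose loss causes a brittle bone disease. It was at 11.3 and 13 CPM in control, 13.4, 15.9, 13.4 and 12.6 CPM in MCF10A-TRAM2 libraries A to D, and 40.4 and 40.3 CPM in MCF10A-YAP5SA. The YAP5SA samples stood far above all the rest, while the TRAM2 samples overlapped control. P3H1 rose 3.33-fold with YAP5SA (log2 fold change 1.74, SE 0.108, edgeR adjusted p = 7.4e-09), the 722nd highest of the 15768 genes tested. With TRAM2 its log2 fold change was 0.19 (95% interval -0.03 to 0.41, edgeR adjusted p = 0.48), and it was 0.093 without control 1 and 0.29 without control 2.

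P3H3 belongs to the same family and is known to act with P3H4 and PLOD1 on lysines of the collagen helix. It was among the lowest members in control, at 1.14 and 0.97 CPM from 25 and 18 counts. In MCF10A-TRAM2 it was at 1.49, 1.52, 1.09 and 0.884 CPM, and in MCF10A-YAP5SA at 17 and 17.7 CPM from 202 and 229 counts. The YAP5SA level thus lay above every other sample by an order of magnitude. P3H3 rose 16.2-fold (log2 fold change 4.02, SE 0.228, edgeR adjusted p = 2.8e-09), the 181st highest of all genes and the largest change in the set. With TRAM2 the log2 fold change was 0.21 with a 95% interval of -0.35 to 0.78, the widest of the set, which takes in changes of the called size in the upward direction. It was 0.65 in the first run alone (edgeR adjusted p = 0.50) and -0.25 in the second (edgeR adjusted p = 0.85). GPR162, a gene that overlaps P3H3 on the same strand in the annotation, was listed at 0 counts in all samples.

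P3H4, also called SC65, holds P3H3 and PLOD1 together and has no hydroxylase activity of its own. Its level was 5.4 and 5.87 CPM in control, 5.21, 5.73, 5.93 and 6.31 CPM in MCF10A-TRAM2 and 9.42 and 9.6 CPM in MCF10A-YAP5SA. The TRAM2 samples lay around control and both YAP5SA samples above them. P3H4 rose 1.69-fold with YAP5SA (log2 fold change 0.76, SE 0.149, edgeR adjusted p = 7.1e-04). With an offset for the effective length of its transcripts the log2 fold change was 1.47 (adjusted p = 0.012), and in TPM, which divides by that length, the gene was at 2.33 and 2 in control and at 6.28 and 5.4 in MCF10A-YAP5SA. With TRAM2 it was 0.05 (95% interval -0.24 to 0.33, edgeR adjusted p = 0.93).

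P3H2, the prolyl 3-hydroxylase of basement membrane (type IV) collagen, went the opposite way. Control samples held 136 and 140 CPM, MCF10A-TRAM2 samples 86.9, 105, 110 and 109 CPM, and MCF10A-YAP5SA samples 46.9 and 49.6 CPM. The groups followed in steps with no overlap, control highest, TRAM2 between and YAP5SA lowest. P3H2 fell with YAP5SA to 0.349 of control (log2 fold change -1.52, SE 0.101, edgeR adjusted p = 3.1e-07). Its log2 fold change with TRAM2 was -0.43 (SE 0.079, 95% interval -0.60 to -0.25), which did not pass the test (edgeR adjusted p = 0.072). Under 17 alternative settings this value stayed between -0.52 and -0.33 and its adjusted p ran from 6.99e-13 to 0.77, under 0.05 in 7. Within the first run it was -0.52 (edgeR adjusted p = 0.040), which passed both thresholds, and within the second run -0.33 (edgeR adjusted p = 9.7e-04), which missed the size threshold. The control libraries of the runs are the matched pairs (A with C, B with D), so these fits are not independent of each other. The settings with 10 separate libraries count the libraries of a matched pair as different samples. The direct comparison of YAP5SA with TRAM2 gave -1.09 (edgeR adjusted p = 2.1e-06). The antisense RNA P3H2-AS1 held 3 to 11 counts per sample and was not tested.

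The promoters of the called 3-hydroxylase genes are given to show what sequence lies at their start sites. RefSeq windows from 250 bases before to 50 after a start site (GRCh38.p14) were found for 8 of the 10 members, with none for P3H4 and P4HA3 and a pair for P3H2. They were searched on both strands for GGAATG, the motif of the TEAD factors that carry YAP to DNA, for TGANTCA (AP-1), and for the hypoxia response cores ACGTG and GCGTG. Of 35116 promoter windows, 14% hold GGAATG, 7.71% TGANTCA, 21.4% ACGTG and 36.5% GCGTG. Capitals mark matches. GGAATG was matched in the upstream P3H2 window and in the P4HA2 window, in both after the start site, and TGANTCA in no window of a member. The windows below are written 5′ to 3′ along the gene.
P3H1, chr1:42766979-42767278, minus strand: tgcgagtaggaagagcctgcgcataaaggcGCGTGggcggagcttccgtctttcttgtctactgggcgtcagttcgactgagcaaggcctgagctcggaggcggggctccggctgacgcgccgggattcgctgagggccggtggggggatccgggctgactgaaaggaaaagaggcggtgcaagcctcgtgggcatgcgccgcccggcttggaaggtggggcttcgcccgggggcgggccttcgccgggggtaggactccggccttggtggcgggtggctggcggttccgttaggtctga
P3H2 upstream start, chr3:190122229-190122528, minus strand: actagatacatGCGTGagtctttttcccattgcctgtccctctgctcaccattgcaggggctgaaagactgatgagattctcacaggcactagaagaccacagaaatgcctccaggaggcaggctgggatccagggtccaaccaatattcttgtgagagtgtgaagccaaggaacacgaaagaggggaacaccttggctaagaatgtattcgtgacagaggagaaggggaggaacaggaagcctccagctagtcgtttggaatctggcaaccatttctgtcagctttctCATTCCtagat
P3H2 downstream start, chr3:190120848-190121147, minus strand: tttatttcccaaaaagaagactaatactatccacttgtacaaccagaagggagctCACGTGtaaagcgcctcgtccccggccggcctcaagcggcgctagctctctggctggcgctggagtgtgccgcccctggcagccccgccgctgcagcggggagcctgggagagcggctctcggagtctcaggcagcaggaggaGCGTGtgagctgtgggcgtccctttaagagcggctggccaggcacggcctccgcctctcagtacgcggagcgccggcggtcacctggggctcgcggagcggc
P3H3, chr12:6828157-6828456, plus strand: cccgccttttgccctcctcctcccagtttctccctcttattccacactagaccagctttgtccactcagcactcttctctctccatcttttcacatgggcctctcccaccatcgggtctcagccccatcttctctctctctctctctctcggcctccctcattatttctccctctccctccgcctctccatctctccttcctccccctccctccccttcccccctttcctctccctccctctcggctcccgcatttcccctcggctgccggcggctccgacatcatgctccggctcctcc
The P3H1 window has 1 match to GCGTG and the P3H3 window none to any of the motifs. In the downstream P3H2 window the pair of ACGTG matches overlaps on opposite strands in a palindrome. A match describes letters and not binding, which these data do not measure.

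The start sites of P3H2 correspond to separate transcripts, P3H2-201 at the downstream and P3H2-203 at the upstream start. P3H2-201 took 59.6% and 62.5% of the gene's estimated counts in control, 53.4%, 59.9%, 65.3% and 67.6% in MCF10A-TRAM2 libraries A to D, and 52.8% and 57.4% in MCF10A-YAP5SA. P3H2-203 took 19.4% and 18.5% in control, 25.9%, 20.8%, 11.7% and 12.2% in MCF10A-TRAM2, and 25.1% and 24.1% in MCF10A-YAP5SA. The TRAM2 libraries of the first run lay above control for P3H2-203 and those of the second run below it. Between control and MCF10A-YAP5SA, P3H2-201 went from 1775 and 1629 counts to 295 and 368 and P3H2-203 from 577 and 483 to 140 and 154, in samples of different depth.

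None of the alpha subunits of prolyl 4-hydroxylase was called with either vector. P4HA1, a hypoxia-inducible gene for the main alpha subunit of many cells, was at 54.4 and 56.4 CPM in control, 54.8, 75, 57.1 and 63.6 CPM in MCF10A-TRAM2 and 73.2 and 68.6 CPM in MCF10A-YAP5SA. TRAM2 library B was as high as the YAP5SA samples, and the TRAM2 and YAP5SA groups overlapped. The log2 fold change with YAP5SA was 0.36 (SE 0.13, 95% interval 0.06 to 0.65, edgeR adjusted p = 0.0496), under the size threshold; its adjusted p was under 0.05 in 9 of 16 alternative settings. With the transcript length offset it was 0.55 (adjusted p = 0.019) and P4HA1 was called. In MCF10A-YAP5SA the retained-intron form P4HA1-206, of 415 bases, held 9.01% and 16.9% of the gene's TPM from 6 and 12 counts. This form had 0 counts in all other samples, and its part in the larger value was not tested. The value with TRAM2 was 0.18 (95% interval -0.08 to 0.43, edgeR adjusted p = 0.56), and 0.082 without library B.

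P4HA2 encodes the alpha subunit that dominated the family here. It was at 82.4 and 81.8 CPM in control, 73.7, 89.1, 79.1 and 78.4 CPM in MCF10A-TRAM2 and 103 and 104 CPM in MCF10A-YAP5SA, so that the YAP5SA samples lay above all others. The difference was 0.33 on the log2 scale (SE 0.0723, edgeR adjusted p = 0.0016), too small for a call. With TRAM2 it was -0.04 (95% interval -0.17 to 0.10, edgeR adjusted p = 0.87). PDLIM4 and SLC22A4, which overlap P4HA2 on the opposite strand, had log2 fold changes of 0.39 and -0.04 with YAP5SA, and neither was called. Whether the quantification used strand is not stated in the sources read. P4HA3, the rarest alpha subunit, had 8 and 1 counts in control, 5, 6, 7 and 3 in MCF10A-TRAM2 and 1 and 2 in MCF10A-YAP5SA, which is too few for a comparison. Their antisense RNAs were near nothing, P4HA2-AS1 at 0 counts in every sample and P4HA3-AS1 at 0 to 2.

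Among the lysyl hydroxylases PLOD2, a hypoxia-inducible gene, rose with YAP5SA, and PLOD1 and PLOD3 were not called. PLOD2 was at 100 and 99.9 CPM in control, 108, 124, 106 and 98.3 CPM in MCF10A-TRAM2 and 527 and 534 CPM in MCF10A-YAP5SA. The YAP5SA samples stood far above the rest and the TRAM2 samples around control. PLOD2 rose 5.3-fold (log2 fold change 2.41, SE 0.0827, edgeR adjusted p = 2.0e-10), the 426th highest of all genes. With TRAM2 its log2 fold change was 0.12 (95% interval -0.04 to 0.28, edgeR adjusted p = 0.53), and 0.055 without library B.

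PLOD1, which modifies lysines of the helix and partners P3H3 and P3H4, was at 96.4 and 103 CPM in control, 100, 103, 103 and 96.2 CPM in MCF10A-TRAM2 and 82.7 and 82 CPM in MCF10A-YAP5SA. The YAP5SA samples were lowest, by -0.27 on the log2 scale (SE 0.0582, edgeR adjusted p = 0.0012), which is under the size threshold. PLOD3, which also carries sugar transferase activity, was at 83.9 and 86.8 CPM in control, 77.9, 76.4, 79.5 and 79.8 CPM in MCF10A-TRAM2 and 71.4 and 72.2 CPM in MCF10A-YAP5SA, a log2 fold change of -0.25 (SE 0.0546, edgeR adjusted p = 0.0016). Its groups followed in the same order as those of P3H2 but within a narrow range. ZNHIT1, which overlaps PLOD3 on the opposite strand, had a log2 fold change of 0.30 with YAP5SA, and no source read here states whether the quantification used strand. With TRAM2 the log2 fold changes were 0.02 (95% interval -0.09 to 0.12) for PLOD1 and -0.12 (95% interval -0.22 to -0.02) for PLOD3, at edgeR adjusted p = 0.93 and 0.29.

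The sequences at PLOD2 are shown because it had the second largest rise and a known alternative exon. Its window holds 2 ACGTG and 1 GCGTG, as many hypoxia cores as the downstream P3H2 window and more than any other member window, upstream of the start site and in capitals here, and no match to GGAATG.
PLOD2 promoter, GRCh38.p14, chr3:146161135-146161434, minus strand: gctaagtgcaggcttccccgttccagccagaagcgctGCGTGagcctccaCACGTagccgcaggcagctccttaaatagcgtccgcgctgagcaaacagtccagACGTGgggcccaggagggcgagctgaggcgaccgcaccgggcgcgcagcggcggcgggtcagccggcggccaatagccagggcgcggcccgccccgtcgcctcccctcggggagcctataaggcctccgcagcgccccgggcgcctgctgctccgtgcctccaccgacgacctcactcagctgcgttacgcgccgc
The alternative exon, of 63 bases, is exon 14 of 20 in the transcript PLOD2-201 and absent from PLOD2-202, and was read from the GENCODE transcript sequence on GRCh37, with the coordinates of that build.
PLOD2 alternative exon, GRCh37, chr3:145795649-145795711, minus strand: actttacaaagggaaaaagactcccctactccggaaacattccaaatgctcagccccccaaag
The form with the exon is the one tied to telopeptide cross-linking. In TPM, PLOD2-201 made up 54.4% and 56.9% of the sum of both transcripts in control, 45.9%, 60%, 52.1% and 45.7% in MCF10A-TRAM2 libraries A to D, and 66.6% and 64.6% in MCF10A-YAP5SA. The YAP5SA samples held the highest shares, outside the range of all others. The test of transcript usage called neither form. PLOD2-201 had a relative log2 fold change of 0.14 at an unadjusted edgeR p of 0.48, and PLOD2-202 of -0.28 at 0.21, both with an adjusted p of 1. Each share is an estimate by Salmon from reads that mostly fall on exons common to both.

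No member transcript passed the test for a change in its share of the gene. Of 65 member transcripts tested, edgeR called none for usage in either vector, beside 0.328% of all 65248 transcripts called with YAP5SA and 0.189% with TRAM2, and 3 and 1 had an unadjusted p under 0.05. With YAP5SA those 3 were P4HA2-213, PLOD2-205 and a short coding transcript of P3H4, at adjusted p = 0.20, 0.33 and 0.57. Among 65 tests, a few unadjusted values under 0.05 can occur with no change in usage. P4HA2-213 took 3.27% and 0% of the gene's counts in control, 5.26%, 2.03%, 7.69% and 14.2% in MCF10A-TRAM2 and 0% in both MCF10A-YAP5SA samples, so the lower control sample shared the YAP5SA value. PLOD2-205, a short coding form, had 45 and 36 counts in MCF10A-YAP5SA and 0 in all other samples. P3H4-202, the main coding transcript, took 75.7% and 89% of counts in control, 71% to 95.7% in MCF10A-TRAM2 and 59.4% and 65.1% in MCF10A-YAP5SA. The short coding transcript of P3H4 held 17.2% and 7.09% in MCF10A-YAP5SA and 10.7% and 3.21% in MCF10A-TRAM2 libraries C and D. It held 0% in control and in MCF10A-TRAM2 libraries A and B. It was also the transcript with an unadjusted p under 0.05 with TRAM2. Protein-coding transcripts held 49.6% to 69.7% of counts for P3H1, 83.1% to 87.6% for P3H2, 75% to 78.3% for PLOD2 and 98.7% or more for P4HA1 and P4HA2. For P3H3 that share ran from 0% to 87.3%, at 14 to 25 counts per sample outside MCF10A-YAP5SA, so its transcripts could not be told apart at this depth. In total 45 transcripts of the set held at least 10% of their gene's TPM in some group, many of them short retained-intron forms.

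Levels were compared between members in TPM, summed over all transcripts, non-coding forms included. Protein-coding transcripts held on average 36.2% of the control TPM of PLOD3, 46.3% of P3H2, 35.4% of PLOD1 and 25.4% of PLOD2. For P4HA2 and P4HA1 they held 98.4% and 100%, so the order below rests in part on non-coding forms. In control the order was PLOD3, P3H2, PLOD1, PLOD2, P4HA2, P4HA1, P3H1, P3H4, P3H3 and P4HA3, with means of 59.7, 56.8, 44.5, 39.2, 27.6, 9.85, 5.75, 2.17, 0.359 and 0.0824 TPM. PLOD3 and P3H2 were within their spread of each other. In MCF10A-YAP5SA, PLOD2 led at 204.6 TPM (SD 9.5, n = 2), ahead of PLOD3, PLOD1 and P4HA2, and P3H1 and P3H2 stood level at 19.94 and 19.6 TPM (SD 1.6 and 1.1). The summed TPM of all 10 genes was 248 and 244 in control, 222 to 251 in MCF10A-TRAM2 and 368 and 398 in MCF10A-YAP5SA.

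Shares within the families showed the same shift. P3H2 made up 88.2% and 86.3% of the P3H family's TPM in control, 80.5% to 86.4% in MCF10A-TRAM2 and 41.1% and 36.3% in MCF10A-YAP5SA. P3H1 made up 7.88% and 9.86%, 9.89% to 14%, and 37.9% and 40.6%. The family sum was 66.9 and 63.3 TPM in control, 43.2, 53.2, 61.5 and 55.9 TPM in MCF10A-TRAM2 and 49.6 and 51.9 TPM in MCF10A-YAP5SA, so that the TRAM2 and YAP5SA samples overlapped. PLOD2's share of the PLOD genes was 28.7% and 26% in control, 25% to 33.2% in MCF10A-TRAM2 and 71.6% and 71.2% in MCF10A-YAP5SA, while the sum was 143 and 144 TPM in control and 276 and 297 TPM in MCF10A-YAP5SA. P4HA2 kept 67.2% to 73.9% of the P4HA genes in every sample.

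**Figure D3:**
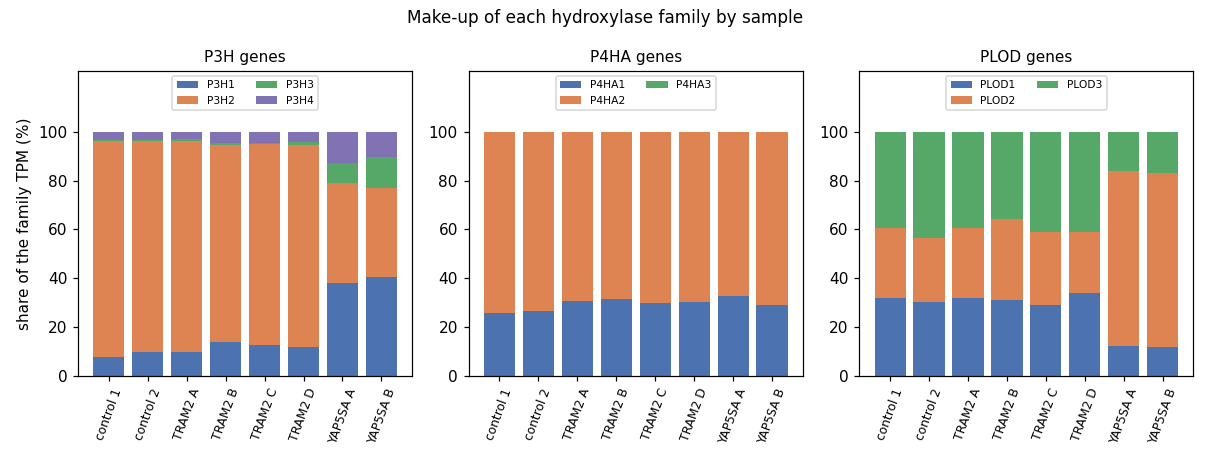
Share of each family's summed TPM (y axis, percent) by member (colours) in the 8 samples (x axis) for the P3H, P4HA and PLOD genes. In the YAP5SA samples P3H1 holds 37.9% and 40.6% of the P3H bar and PLOD2 71.6% and 71.2% of the PLOD bar, while the P4HA bars look alike.

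Set against TRAM2 cells rather than control, YAP5SA cells again had P3H1, P3H3, P3H4 and PLOD2 higher and P3H2 lower. In that comparison 4 members were called higher and 1 lower, beside 14.9% of all genes called higher, 14.6% lower and 29.4% in either direction, and 8 had an adjusted p under 0.05, as did 51.2% of all genes. The log2 fold changes were 1.55 for P3H1, 3.81 for P3H3, 0.71 for P3H4 and 2.28 for PLOD2. P4HA2 (0.37), PLOD1 (-0.29) and PLOD3 (-0.13) passed the adjusted p but not the size threshold, PLOD3 in 5 of 16 alternative settings, and P4HA1 (0.18, edgeR adjusted p = 0.23) passed neither.

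Among the proteins that work beside the hydroxylases, P4HB and CRTAP rose with YAP5SA. Of 8 partners and collagen glycosyltransferases 6 were tested, of which 2 rose with YAP5SA and none fell, with a median log2 fold change of 0.188. Of all genes, 15.3% were called higher and 14.1% lower. P4HB, the beta subunit of prolyl 4-hydroxylase, was at 378 and 376 CPM in control and 608 and 618 CPM in MCF10A-YAP5SA, a log2 fold change of 0.70 (edgeR adjusted p = 1.7e-08). CRTAP, the helper of P3H1, went from 119 and 121 CPM to 173 and 176 CPM, a log2 fold change of 0.55 (edgeR adjusted p = 5.7e-07). The TRAM2 samples lay at 377 to 394 CPM for P4HB and 115 to 122 CPM for CRTAP, around control. PPIB, the cyclophilin of the P3H1 complex, had a log2 fold change of 0.10, SERPINH1, the collagen chaperone HSP47, -0.08, FKBP14, a prolyl isomerase, 0.27 and COLGALT1, the galactosyltransferase of hydroxylysine, -0.05, and none of these was called. FKBP10, a chaperone known to assist PLOD2, stayed at or below 1.08 CPM in every sample and COLGALT2 at or below 0.155 CPM, and neither was tested. With TRAM2 none of the 6 was called, 1 had an unadjusted p under 0.05 (COLGALT1, log2 fold change -0.27, edgeR adjusted p = 0.11), as did 12.6% of all genes, and the median was -0.026.

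Within the known complexes the balance of mRNA levels in MCF10A-YAP5SA lay apart from the other groups, while MCF10A-TRAM2 overlapped control. The TPM of P3H1 over that of CRTAP was 0.101 and 0.118 in control, 0.0852 to 0.146 in MCF10A-TRAM2 and 0.241 and 0.296 in MCF10A-YAP5SA. P3H3 over PLOD1 was 0.00681 and 0.00938 in control, 0.00693 to 0.0168 in MCF10A-TRAM2 and 0.121 and 0.187 in MCF10A-YAP5SA. P3H4 over PLOD1 was 0.0513 and 0.046 in control, 0.0277 to 0.0659 in MCF10A-TRAM2 and 0.186 and 0.153 in MCF10A-YAP5SA. P3H3 had only 14 to 25 counts per sample outside MCF10A-YAP5SA. The sum of the P4HA genes over P4HB was 0.0627 and 0.0641 in control, 0.0528 to 0.0663 in MCF10A-TRAM2 and 0.0445 and 0.0517 in MCF10A-YAP5SA. The first 3 ratios were higher with YAP5SA in both samples than anywhere else and the last lower. For P3H4 the TPM in MCF10A-YAP5SA includes short forms with few counts, as given above.

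The substrates and the later steps of collagen production were counted in the same fit, beside 15.3% of all genes called higher and 14.1% called lower with YAP5SA. Of 30 collagen chain genes 18 were tested, and 9 rose and 5 fell with YAP5SA, at a median log2 fold change of 0.622. The called chains with the smallest adjusted p were COL4A4 (6.91), COL4A2 (1.72), COL8A1 (3.42) and COL4A1 (2.11), 3 of them chains of type IV collagen and COL8A1 a short-chain network collagen. COL4A2 was at 166.3 CPM on average in control and 546.2 CPM in MCF10A-YAP5SA, and COL4A4 at 0.6975 and 84.45 CPM. The chains that fell were COL17A1 (from 271.9 to 111 CPM), COL7A1 (from 22.62 to 2.128 CPM), COL16A1, COL6A2 and COL1A1. Of the fibrillar type I and III chains, COL1A1 fell from 3.304 to 0.7722 CPM and COL1A2 and COL3A1 were too low to be tested. These chains were picked after their values were seen. Lysyl oxidases, which cross-link the hydroxylated lysines outside the cell, rose in 3 of 4 tested, LOXL2 (2.51), LOXL1 (2.58) and LOX (1.52), and none fell. Among 11 tested genes for procollagen processing and exit from the endoplasmic reticulum 5 rose and 3 fell. SEC23A (1.06), SEC24D (2.07) and MIA3 (0.64) were higher and MIA2 (-1.34) was lower. With TRAM2 no gene of these lists was called, while 8 collagen chains, 1 lysyl oxidase and 2 processing genes had an unadjusted p under 0.05, beside the 12.6% of all genes, and their medians were 0.175, 0.299 and 0.134 against -8e-04 for all genes.

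Related hydroxylases, hypoxia-inducible genes and cofactor supply were counted next, beside 15.3% of all genes called higher and 14.1% called lower with YAP5SA. Of 10 other 2-oxoglutarate-dependent hydroxylases, all tested, 2 rose with YAP5SA and none fell, at a median of 0.151. They were ASPH, which hydroxylates aspartate and asparagine, from 644.7 to 1492 CPM (log2 fold change 1.21), and EGLN3, a hydroxylase of the HIF factors, from 0.2598 to 1.893 CPM (2.78). Hypoxia-inducible genes, of which 24 of 25 were tested, rose in 4 and fell in 5 cases, at a median of -0.165, with ADM (2.88) and BNIP3L (0.74) higher and DDIT4 (-2.32) and LDHA (-0.57) lower. EGLN3 is in both lists. Of 8 tested genes for ascorbate and iron supply 2 rose and 2 fell, the aconitase and iron sensor ACO1 (1.39) and the ferritin chain FTL (0.57) against the ferritin chain FTH1 (-0.72) and the transferrin receptor TFRC (-0.61). No gene of these lists was called with TRAM2, with 3, 6 and 2 at an unadjusted p under 0.05, beside 12.6% of all genes.

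The genes whose pattern over the 8 samples lay closest to that of P3H1 were SOCS3, TPM2 and IL6ST. The root mean square difference of their log2 CPM relative to the control mean was 0.063, 0.072 and 0.08. Their log2 fold changes were 1.70, 1.85 and 1.82 with YAP5SA and 0.17, 0.18 and 0.18 with TRAM2, beside 1.74 and 0.19 for P3H1. Because the genes were chosen by this pattern in the same samples, the likeness of the fold changes follows from the choice. SOCS3 was at 2.506 CPM on average in control, TPM2 at 127.1 CPM and IL6ST at 106.2 CPM.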

How the data were processed

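Polyadenylated RNA of 10 MCF10A libraries was sequenced. Reads were trimmed with Cutadapt and quantified per transcript with Salmon, per the submitters' processing notes, which name no versions, genome build, annotation or strand setting used for these libraries. The deposited values are each library's estimated counts and TPM (scaled by the authors' Salmon run to effective length and depth), with the effective length itself. Both were summed over the transcripts of 60168 genes, counts rounded to whole numbers, and control A with C and control B with D summed, giving 8 samples. Genes passing edgeR's expression filter (15768) were scaled by TMM and fitted in edgeR 4.0.16 (R 4.3.3) by the robust quasi-likelihood test, all groups sharing the estimate of spread. The thresholds were 0.05 for the Benjamini-Hochberg adjusted p and 0.5 for the size of the log2 fold change. Intervals are at 95%. Transcript usage was tested with edgeR on transcript counts. Alternatives were DESeq2 1.42.0, its size factors in edgeR, no filter, only the groups compared, a transcript length offset, 10 separate libraries, each run alone and leaving out each sample. The fit was tested on simulated data.

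The members and gene lists were chosen with earlier results of these data known. Genes named from a list were the called ones with the smallest adjusted p, up to 4, and all members and partners are given. Collagen chains that fell and the type I and III chains are named in addition. The genes most like P3H1 were the 3 with the smallest root mean square difference over the 8 samples. Amino acid sequences were not used here.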

Additional observations from a re-analysis of the deposited data

How the results depend on the processing

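For YAP5SA against control and against TRAM2, the calls of P3H1, P3H2, P3H3, P3H4 and PLOD2 held in all 16 alternative settings, and P4HA1 was called in addition under the transcript length offset (log2 fold change 0.55 against control). For TRAM2 against control, 1 member was called lower in the first run alone (P3H2, -0.52) and none in the other 16 settings. In that comparison some uncalled values changed sign: PLOD1 went from 0.02 to -0.0061 with no filter and -0.069 in the second run, P3H4 from 0.05 to -0.12 in the first run, and P3H3 from 0.21 to -0.25 in the second run, with 0.65 in the first. Leaving out a sample gave -0.0279 to 0.0671 for PLOD1 and -0.0107 to 0.109 for P3H4, negative without control 1, and -0.0892 to 7e-04 for P4HA2, positive without TRAM2 A, and 0.093 to 0.29 for P3H1, 0.082 to 0.23 for P4HA1 and 0.055 to 0.18 for PLOD2; the cause was not tested. The number of all genes called with TRAM2, 9, was 136 with no filter, 33 with DESeq2, 1 with the length offset, 67 with 10 separate libraries, 25 and 97 in the first and second run alone, and 3 to 39 when a sample was left out (3 without control 2, 19 without TRAM2 A, 39 without TRAM2 B). With 10 libraries and a replicate block it was 69. Both settings with 10 libraries count the matched control libraries as different samples, and the fits of single runs share matched controls. Same-letter libraries of different groups correlated at -0.031 to 0.035 in their deviations from group means, and different-letter libraries at -0.057 to 0.057. No pairing by letter was seen. The check is weak, because the deviations of the 2 MCF10A-YAP5SA libraries mirror each other. Depth was low outside YAP5SA for P4HA3, with 1 to 8 counts and no test, P3H3, with 14 to 25 counts, and P3H4, with 70 to 118 counts.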
